A study of Mus musculus with 6 samples.

Results

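The genes described are 29 subunits of the channels that carry sodium, calcium and the hyperpolarisation-activated cation current in neurons, chosen by name from the 53715 genes of the count table. They comprise 6 voltage-gated sodium channel alpha genes and 3 beta genes, 9 calcium channel alpha1, 4 alpha2delta and 4 beta genes, and 3 HCN genes. Their messenger RNA was measured by bulk sequencing of poly(A) transcripts of the piriform cortex, an olfactory area of the ventral forebrain. All mice carried Gad2-cre, which drives Cre recombinase in cells that express the GABA-synthesising enzyme Gad2. The piriform cortex of 1 side received an adeno-associated virus with a Cre-dependent (DIO) transgene, AAV-DIO-Caspase3 to kill Gad2 cells by apoptosis or AAV-DIO-GFP as control, with 3 libraries in each group. The sources used here give no age, sex, injected side, sampled hemisphere or time after injection. Whether each library is a different animal is not labelled either, so the tests compare the groups with the spread among libraries, part of which may be technical.

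Voltage-gated sodium channels open within the rising phase of the action potential; the alpha subunit forms the pore and the beta subunits are cell adhesion proteins that modulate it. In a voltage-gated calcium channel the alpha1 subunit is the pore, while the cytoplasmic beta and the extracellular alpha2delta subunits bring it to the membrane and to release sites. HCN channels pass an inward cation current when a neuron is hyperpolarised and thereby set resting potential and rhythmic firing. Inhibitory and excitatory neurons use different members: Scn1a is prominent in fast-spiking interneurons, Scn2a in excitatory neurons and Scn4b in striatal projection neurons. Several of the genes are known epilepsy genes in humans, among them SCN1A, SCN2A, SCN8A and CACNA1A.

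Total counts were 20424581 to 26268377 per library. The targeted gene Gad2 stood at 26.7, 38.5 and 38.0 CPM (counts scaled to library size after TMM normalization) in the Caspase3 libraries and at 92.4, 118 and 103.7 CPM in the GFP libraries, with no overlap. Cortical excitatory markers were present in every library, among them Slc17a7, the vesicular glutamate transporter, at 780.2 to 1221 CPM. A pair of libraries stood apart. In GFP replicate 3 the 16 markers of striatal projection neurons summed to 1864 CPM, against 656 and 539 CPM in GFP replicates 1 and 2 and 504 to 515 CPM in the Caspase3 group. In Caspase3 replicate 1 the 10 oligodendrocyte markers summed to 13418 CPM, against 9464 and 9656 CPM in the other Caspase3 libraries and 8161 to 9619 CPM in the GFP group.

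No channel gene passed the test over all genes. Of the 29, 27 passed the filter on low counts, and 0 of these 27 had an adjusted p under 0.05 in edgeR's quasi-likelihood test, where 1.64% of all 16721 tested genes did. At an unadjusted p under 0.05 there were 9, all lower in the Caspase3 group, or 33.3% of the members, where 10.6% of all tested genes reached that level and 3.91% did so with a lower value. DESeq2 passed 2, both lower, and limma-voom 0, where they passed 3.02% and 1.38% of all genes. The 9 were Cacnb4, Cacna2d3, Scn9a, Cacna1h, Scn4b, Scn8a, Scn1a, Cacna2d2 and Cacnb2. The log2 fold change was below 0 for 25 of the 27, against 50.2% of all tested genes, and the median was -0.19 over the members and -0.0011 over all tested genes. The edgeR fit passed 2 members without Caspase3 replicate 1 (1.66% of all genes), 1 without Caspase3 replicate 2 (1.32%) and 1 without GFP replicate 1 (1.28%), all lower. It passed 0 without Caspase3 replicate 3 (1.27%), 0 without GFP replicate 2 (0.099%) and 0 without GFP replicate 3 (0.843%). Without both libraries that stood apart, a choice made after seeing the data, it passed 3 (2%), all lower.

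In 5 of the 27 tested members the groups did not overlap, all with the Caspase3 libraries lower: Scn8a, Scn9a, Cacna1h, Cacnb2 and Cacnb4. Of all tested genes, 15.2% had groups that did not overlap, and 6.29% had them with the Caspase3 libraries lower. The summed level of the 29 genes was 3415, 3883 and 3684 CPM in Caspase3 replicates 1 to 3 and 4277, 4703 and 4345 CPM in the GFP replicates. These sums did not overlap. In bulk RNA, fewer cells of a type and less RNA per cell cannot be told apart.

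**Figure D1:**
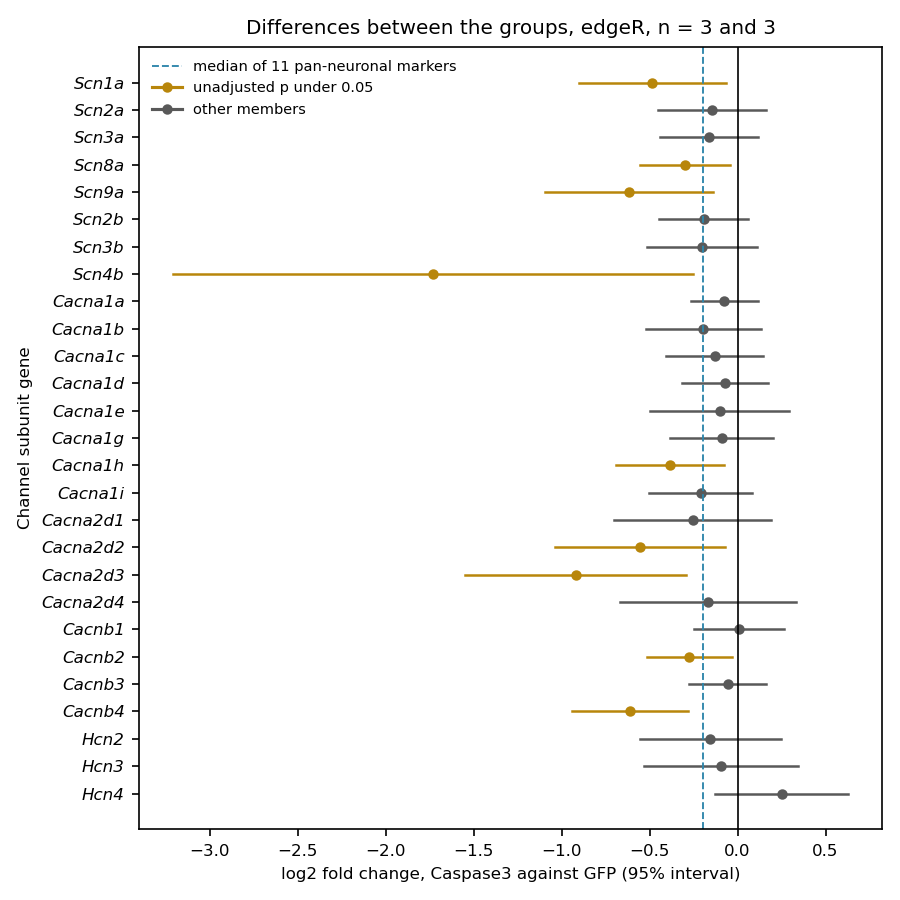
The log2 fold change of the 27 tested members, Caspase3 against GFP, with 95% intervals from the edgeR fit (3 libraries a group); points left of 0 are lower in the Caspase3 group, ochre marks an unadjusted p under 0.05 and the dashed line is the median of 11 pan-neuronal markers at -0.20. Of the points, 25 lie left of 0, and Scn4b has the widest interval, from -3.21 to -0.25.

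Markers of other cells differed beside these values. The 11 pan-neuronal markers summed to 9067 to 10464 CPM in the Caspase3 group and 9781 to 12732 CPM in the GFP group. Their median log2 fold change was -0.20, with 9 of 11 below 0 and none passing the test (edgeR; 1 at an unadjusted p under 0.05). The 18 GABAergic markers summed to 686 to 1006 against 1119 to 1510 CPM, all 18 had values below 0, and 1, Gad2, passed. The 10 microglial markers summed to 729 to 1048 CPM against 389 to 467 CPM, and all 10 had values above 0. Of the 10, 8 passed, all higher (edgeR adjusted p under 0.05), where 1.53% of all tested genes passed with a higher value. The 14 cortical excitatory markers had a median of -0.03 and summed to 3989 to 4643 against 3878 to 4569 CPM. The part of these cell types in the channel values was not tested. No marker of these 4 lists was at 0 in any library.

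**Figure D2:**
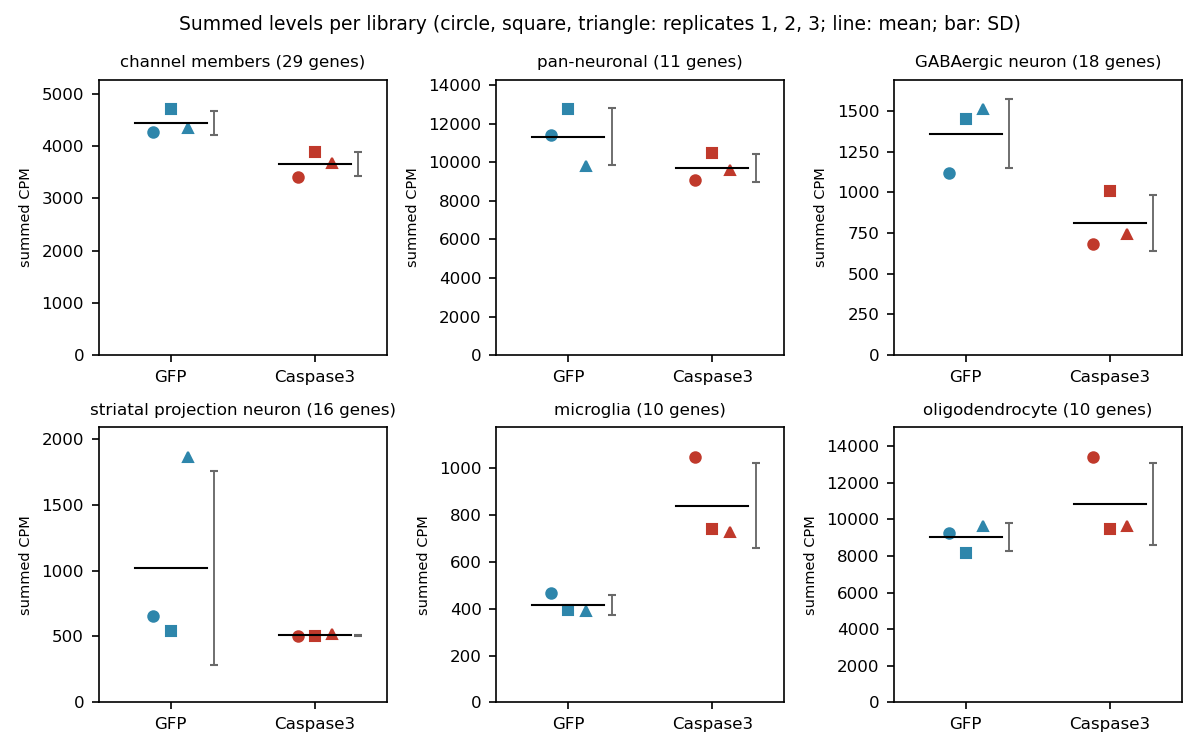
Summed CPM per library of the 29 channel genes and of 5 marker lists; points are libraries, lines group means and bars SD (n = 3). The channel sums do not overlap between the groups (3415 to 3883 against 4277 to 4703 CPM), GFP replicate 3 stands alone in the striatal panel at 1864 CPM and Caspase3 replicate 1 in the oligodendrocyte panel at 13418 CPM.

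Levels were compared between genes as FPKM, which divides by gene length. The subunits spanned a wide range, with 15 genes at a mean of at least 10 FPKM over the 6 libraries, 10 between 1 and 10 FPKM, and 4 below 1 FPKM. The highest was Scn2b at 67.1 FPKM, followed by Scn2a at 49.1, Cacna2d1 at 36.6, Cacnb3 at 33.5, Hcn2 at 31.4 and Cacnb4 at 29.3 FPKM. The 4 lowest were Scn9a at 0.310 FPKM, best known from pain-sensing neurons, Cacna2d4 at 0.226 and Cacna1f at 0.0442 FPKM, both known from photoreceptors, and Scn4a, the skeletal muscle channel, at 0.00203 FPKM. Scn4a had 2 counts over the Caspase3 libraries and 0 over the GFP libraries, and Cacna1f had 26 and 30 counts. Neither passed the filter on low counts, so neither was tested.

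**Figure D3:**
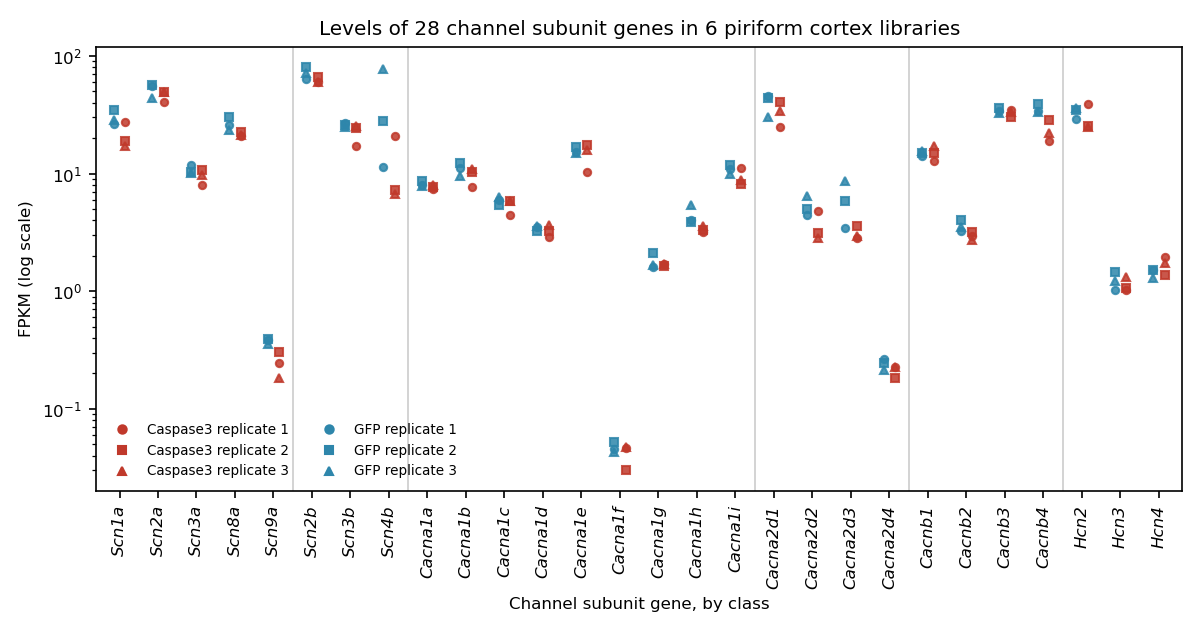
FPKM (log axis) of 28 channel genes in each library, grouped by class with vertical lines; blue points are GFP, red points Caspase3, and the symbols give the replicate. Scn4a, listed at 0 in 4 libraries, is not drawn; the 3 points of Scn4b in the GFP group spread from 11.4 to 76.6 FPKM.

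Scn2a, the alpha subunit of excitatory axons and of early development, made up 45.1% of the summed sodium alpha FPKM on average, Scn1a 23.3%, Scn8a 22.0% and Scn3a, the mainly embryonic subunit, 9.32%. Scn1a, Scn2a, Scn3a and Scn9a lie on chromosome 2, between 65457118 and 66634962 (GRCm38), with 53.1 kb between Scn3a and Scn2a, 503.0 kb between Scn2a and Scn1a and 39.2 kb between Scn1a and Scn9a. They are related genes, and the counting could divide reads in conserved exons differently.

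Scn1a (ENSMUSG00000064329) stood at 311, 212 and 191 CPM in Caspase3 replicates 1 to 3 and at 293, 386 and 321 CPM in GFP replicates 1 to 3. Caspase3 replicate 1 lay within the GFP range, and the other Caspase3 libraries lay below it. The group values were 238 ± 63.7 and 333 ± 48.1 CPM (SD, n = 3 each), with a log2 fold change of -0.48 ± 0.19 (SE) and an edgeR adjusted p of 0.375. Without Caspase3 replicate 1 the log2 fold change was -0.72 and passed (edgeR adjusted p = 0.0353), and without that library and GFP replicate 3 it was -0.75 (adjusted p = 0.0227). Leaving out any other single library gave -0.57 to -0.36 and did not pass.

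Scn8a, the main sodium channel of mature axon initial segments and nodes, stood at 335, 355 and 335 CPM in the Caspase3 libraries and at 409.9, 475 and 374 CPM in the GFP libraries. The groups did not overlap, and the Caspase3 libraries differed from each other by less than the GFP libraries did. At 341.5 ± 11.5 against 419.6 ± 51.2 CPM (SD, n = 3), it had a log2 fold change of -0.30 ± 0.11 (SE; edgeR adjusted p = 0.370). Scn2a stood at 521, 634 and 636 CPM against 706, 711 and 560.4 CPM, and GFP replicate 3 lay inside the Caspase3 range. Its log2 fold change was -0.14 ± 0.14 (SE; edgeR adjusted p = 0.766).

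Scn9a stood at 3.17, 3.87 and 2.37 CPM in the Caspase3 libraries and at 4.89, 4.95 and 4.57 CPM in the GFP libraries. All 3 GFP values lay above the highest Caspase3 value. Its log2 fold change was -0.62 ± 0.21 (SE; edgeR adjusted p = 0.307). Its total of 546 counts is small, and its exons overlap those of the antisense gene Gm13629, which held 430 counts; without a stated strand setting, reads of these genes cannot be told apart. Scn3a ranged from 101 to 134 CPM and from 126 to 147 CPM, with a log2 fold change of -0.16 (edgeR adjusted p = 0.703).

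The share of Scn1a among the alpha subunits varied between libraries. It was 28.3%, 18.6% and 17.5% of the summed FPKM in Caspase3 replicates 1 to 3 and 21.9%, 26.4% and 26.9% in the GFP replicates. The ratio of Scn1a to Scn2a FPKM was accordingly highest in Caspase3 replicate 1 at 0.681 and lowest in Caspase3 replicates 3 and 2 at 0.344 and 0.383, with the GFP libraries at 0.473 to 0.654. The Scn8a share lay between 21.6% and 22.9% in all 6 libraries.

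The beta subunits held the member with the largest spread. Scn4b, which supports resurgent current in fast-firing neurons, stood at 105, 36.4 and 33.8 CPM in Caspase3 replicates 1 to 3 and at 56.9, 139.7 and 384 CPM in GFP replicates 1 to 3. GFP replicate 3, where striatal markers were highest, held the highest value, and Caspase3 replicate 1 exceeded GFP replicate 1. The other libraries did not share the order of the striatal sums. These sums were 656 and 539 CPM in GFP replicates 1 and 2 and 504 to 515 CPM in the Caspase3 group. The part of striatal cells in the Scn4b values was not tested. The ratio of the highest to the lowest library was 11.3, against 1.15 for Cacna1a. The group values were 58.4 ± 40.3 and 193 ± 169.9 CPM (SD, n = 3 each), and the log2 fold change was -1.73 ± 0.65 (SE; edgeR adjusted p = 0.369). Leaving out 1 library gave -0.77 without GFP replicate 3 (adjusted p = 0.641), -2.46 without Caspase3 replicate 1 (adjusted p = 0.144), -2.17 without GFP replicate 1 (adjusted p = 0.145) and -1.48 to -1.92 without each of the others (adjusted p = 0.427 to 0.735), none of which passed. Without both GFP replicate 3 and Caspase3 replicate 1 it was -1.49 and passed (adjusted p = 0.0374).

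Scn2b lies 8.32 kb from Scn4b on chromosome 9. The Scn2b product, which is disulphide-linked to the alpha subunit as that of Scn4b is, modulates gating, and Scn2b stood at 286, 311 and 282 CPM in the Caspase3 libraries and at 295, 371 and 337.5 CPM in the GFP libraries, with overlapping groups. Its log2 fold change was -0.19 ± 0.11 (SE; edgeR adjusted p = 0.607). The ratio of Scn4b to Scn2b FPKM was 1.06 in GFP replicate 3, 0.352 in GFP replicate 2, 0.343 in Caspase3 replicate 1, 0.180 in GFP replicate 1 and 0.109 and 0.112 in Caspase3 replicates 2 and 3. Scn3b, a non-covalently bound beta subunit, ranged from 95.4 to 139 CPM and from 136 to 146 CPM, with a log2 fold change of -0.20 (edgeR adjusted p = 0.673).

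**Figure D4:**
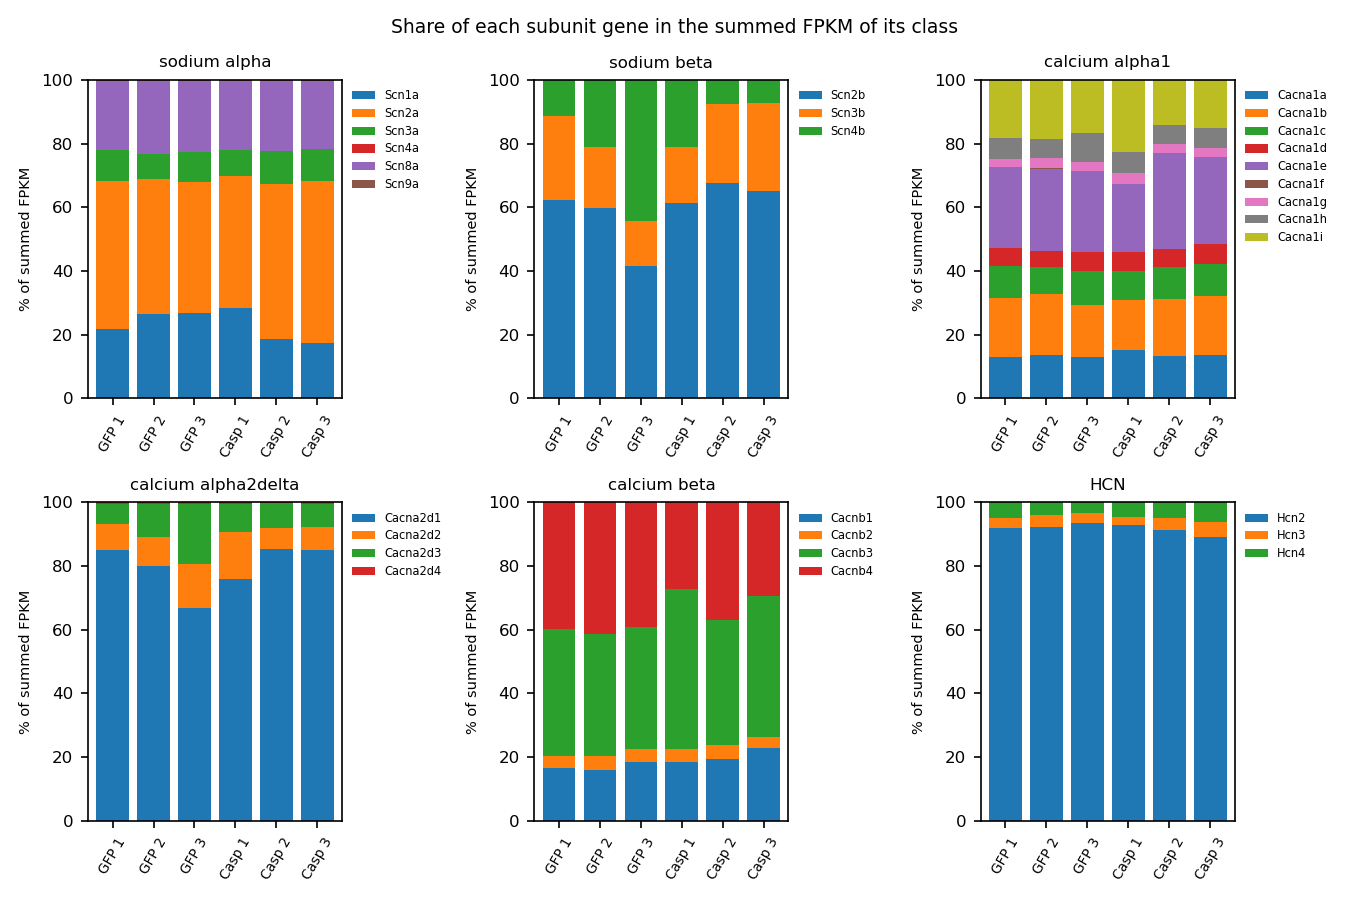
Share of each gene in the summed FPKM of its class, in percent, for GFP replicates 1 to 3 and Caspase3 (Casp) replicates 1 to 3. In the sodium beta panel Scn4b makes up 44.1% in GFP replicate 3 and 7.33% to 21.1% elsewhere, and in the calcium beta panel Cacnb4 makes up 39.2% to 41.5% in the GFP libraries and 27.3% to 37.1% in the Caspase3 libraries.

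Of the 9 calcium channel pore genes, which encode alpha1 subunits, 8 were tested, all 8 had log2 fold changes below 0, none passed the test (edgeR; 1 at an unadjusted p under 0.05; DESeq2 and limma-voom 0), and the median was -0.12. The high-voltage-activated Cacna1e, the R-type pore, had the highest level of the class at 25.9% of the summed FPKM, followed by the N-type Cacna1b at 17.6%, the T-type Cacna1i at 17.5% and the P/Q-type Cacna1a at 13.7%. Cacna1a and Cacna1b carry most of the calcium entry that triggers transmitter release.

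Cacna1e stood at 264, 439 and 405 CPM in the Caspase3 libraries and at 388, 419 and 381 CPM in the GFP libraries. Caspase3 replicate 1 was the lowest and Caspase3 replicate 2 the highest of all 6. The log2 fold change was -0.10 ± 0.17 (SE; edgeR adjusted p = 0.882), and it was 0.09 without Caspase3 replicate 1. Cacna1a had the tightest values of the class, from 86.0 to 91.8 CPM and from 89.4 to 98.6 CPM. Its 95% interval for the log2 fold change reached from -0.27 to 0.11, so changes of 2-fold or more lie outside it.

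Cacna1h, 1 of the 3 T-type pores, which open near resting potential and support bursts, stood at 31.4, 32.7 and 35.4 CPM in the Caspase3 libraries and at 39.6, 37.6 and 52.6 CPM in the GFP libraries. The groups did not overlap, and GFP replicate 3 was the highest. The log2 fold change was -0.38 ± 0.14 (SE; edgeR adjusted p = 0.331), and -0.23 without GFP replicate 3. The other T-type pores, Cacna1g and Cacna1i, had log2 fold changes of -0.09 and -0.21, and the L-type pores Cacna1c and Cacna1d of -0.13 and -0.07 (edgeR adjusted p = 0.628 to 0.865 for these 4). The exons of Cacna1d overlap those of Chdh on the other strand.

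Among the alpha2delta subunits, Cacna2d1, the target of gabapentin, made up 79.7% of the summed FPKM. It stood at 314, 503 and 429.7 CPM in the Caspase3 libraries and at 567, 541 and 381 CPM in the GFP libraries, so the groups overlapped, and the lowest value of each group was in a library that stood apart. Its log2 fold change was -0.26 ± 0.20 (SE; edgeR adjusted p = 0.714).

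Cacna2d3 (chromosome 14, 28904943 to 29721864, GRCm38) stood at 25.1, 31.2 and 26.0 CPM in the Caspase3 libraries and at 29.8, 50.3 and 75.5 CPM in the GFP libraries. The GFP values were spread over a wider range, with replicate 3 the highest and replicate 1 inside the Caspase3 range. The group values were 27.4 ± 3.28 and 51.9 ± 22.9 CPM (SD, n = 3 each), a 1.89-fold lower level with a log2 fold change of -0.92 ± 0.28 (SE; edgeR adjusted p = 0.228). DESeq2 passed it (adjusted p = 0.00943), as did edgeR without GFP replicate 1 (log2 fold change -1.20, adjusted p = 0.0231). Without GFP replicate 3 the log2 fold change was -0.56 (adjusted p = 0.416).

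Cacna2d2, the alpha2delta subunit known from Purkinje cells and interneurons, stood at 38.7, 24.9 and 22.5 CPM in the Caspase3 libraries and at 35.3, 39.5 and 51.5 CPM in the GFP libraries. Caspase3 replicate 1 lay within the GFP range, as it did for Scn1a. For all libraries the log2 fold change was -0.56 ± 0.21 (SE; edgeR adjusted p = 0.376), -0.83 without Caspase3 replicate 1 (adjusted p = 0.0412) and -0.66 without that library and GFP replicate 3 (adjusted p = 0.0246). Cacna2d4, at 1.73 to 2.52 CPM, had a log2 fold change of -0.17 (edgeR adjusted p = 0.839).

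The member with the smallest p was the calcium channel beta subunit Cacnb4, whose loss causes the seizures and ataxia of the lethargic mouse. It (ENSMUSG00000017412, chromosome 2, 52428320 to 52676831, minus strand, GRCm38) stood at 173, 254 and 199 CPM in Caspase3 replicates 1 to 3 and at 305, 349 and 301 CPM in GFP replicates 1 to 3. Every Caspase3 library lay below every GFP library. The group values were 209 ± 41.2 and 318 ± 26.7 CPM (SD, n = 3 each), a 1.53-fold lower level, with a log2 fold change of -0.61 ± 0.15 (SE) and an edgeR adjusted p of 0.101. DESeq2 passed it (adjusted p = 0.00319), as did edgeR without Caspase3 replicate 2 (log2 fold change -0.78, adjusted p = 0.0278). Leaving out any other single library gave -0.66 to -0.49 (adjusted p = 0.151 to 0.365). Of the members, Cacnb4 and Cacna2d3 were those that DESeq2 passed.

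Cacnb3, the most abundant beta subunit per length, had overlapping groups. It stood at 142.5, 120.4 and 134 CPM in the Caspase3 libraries and at 137, 144 and 132 CPM in the GFP libraries, with a log2 fold change of -0.06 ± 0.10 (SE; edgeR adjusted p = 0.880). The ratio of Cacnb4 to Cacnb3 FPKM was 0.544, 0.944 and 0.662 in Caspase3 replicates 1 to 3 and 0.996, 1.08 and 1.02 in the GFP replicates. Cacnb2 stood at 39.8, 41.9 and 36.2 CPM against 43.2, 52.9 and 46.4 CPM, groups that did not overlap, with a log2 fold change of -0.27 ± 0.11 (SE; edgeR adjusted p = 0.392). Cacnb1, at 58.8 to 78.0 and 64.1 to 71.1 CPM, had a log2 fold change of 0.0075 (adjusted p = 0.990).

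**Figure D5:**
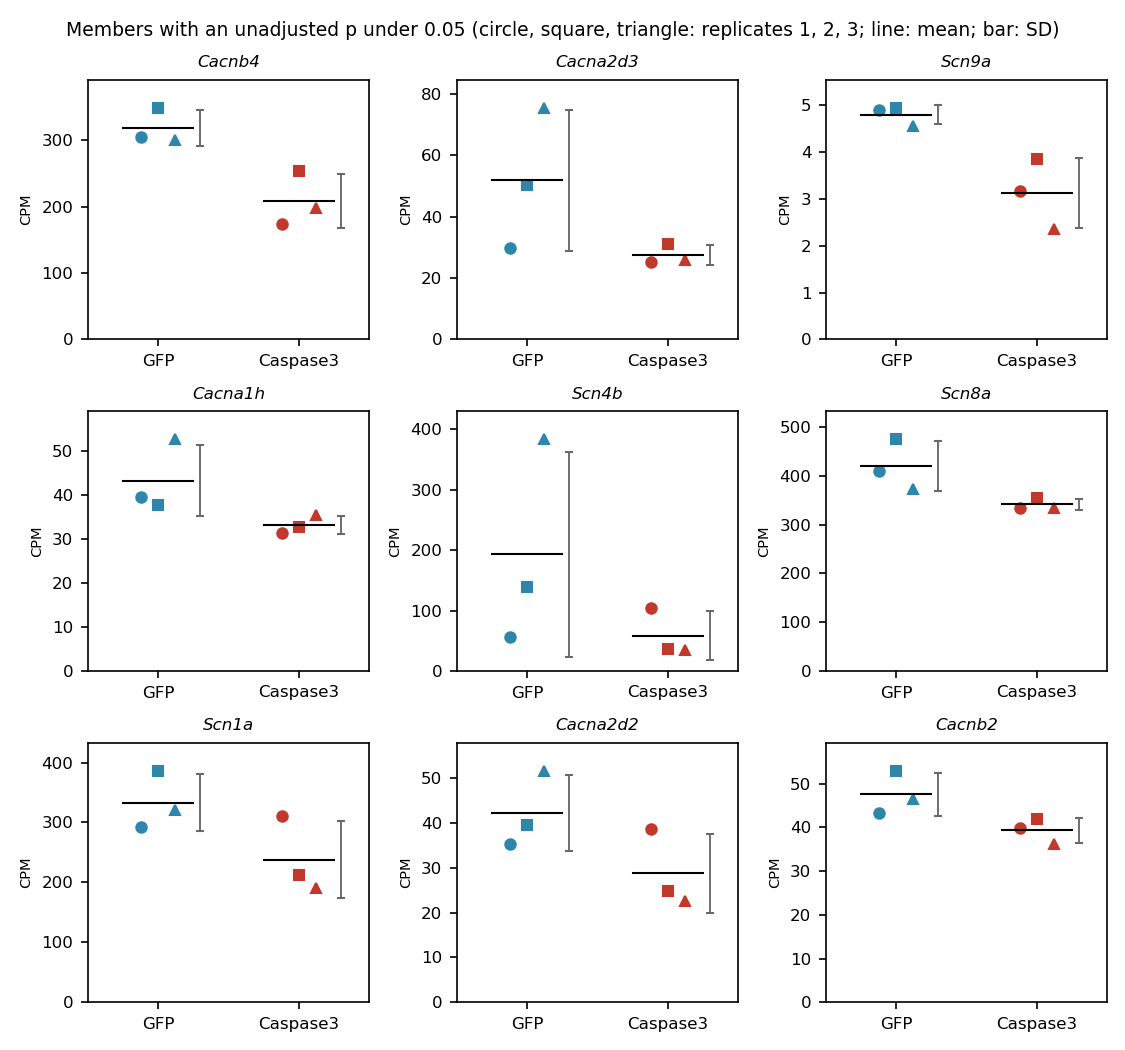
CPM per library of the 9 members with an unadjusted p under 0.05 in edgeR, in order of p; points are libraries, lines group means and bars SD (n = 3). Cacnb4, Scn9a, Cacna1h, Scn8a and Cacnb2 have groups that do not overlap, while Scn1a and Cacna2d2 have Caspase3 replicate 1 within the GFP range. GFP replicate 3 is the highest library for Scn4b, Cacna2d3, Cacna2d2 and Cacna1h.

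The promoters of 3 genes are shown. Cacnb4 was taken for the smallest p, and Cacna2d3 and Scn4b because they exceeded the other GFP libraries most in GFP replicate 3. A link between promoter sequence and these levels was not tested. Each window runs from 250 bases before to 50 bases after a RefSeq transcript start (GRCm38.p6), 5′ to 3′ on the gene's strand. RefSeq windows were found for 22 of the 29 members. Capitals mark the GC box GGGCGG on either strand, where neighbouring matches may overlap.
Cacnb4, chr2:52676094-52676393, minus strand: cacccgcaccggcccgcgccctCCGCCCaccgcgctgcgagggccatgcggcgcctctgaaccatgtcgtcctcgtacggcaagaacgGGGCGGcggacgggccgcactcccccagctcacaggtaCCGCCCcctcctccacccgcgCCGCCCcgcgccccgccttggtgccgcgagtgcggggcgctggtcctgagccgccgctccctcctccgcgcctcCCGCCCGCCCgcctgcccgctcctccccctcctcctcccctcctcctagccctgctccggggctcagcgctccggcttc
Cacna2d3, chr14:29721815-29722114, minus strand: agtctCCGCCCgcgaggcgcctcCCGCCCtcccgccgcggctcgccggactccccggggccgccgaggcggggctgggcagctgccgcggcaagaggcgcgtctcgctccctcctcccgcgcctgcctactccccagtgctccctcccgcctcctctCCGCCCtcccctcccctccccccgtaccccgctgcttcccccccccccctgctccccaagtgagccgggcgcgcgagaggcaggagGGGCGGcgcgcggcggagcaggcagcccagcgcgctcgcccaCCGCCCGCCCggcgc
Scn4b, chr9:45138374-45138673, plus strand: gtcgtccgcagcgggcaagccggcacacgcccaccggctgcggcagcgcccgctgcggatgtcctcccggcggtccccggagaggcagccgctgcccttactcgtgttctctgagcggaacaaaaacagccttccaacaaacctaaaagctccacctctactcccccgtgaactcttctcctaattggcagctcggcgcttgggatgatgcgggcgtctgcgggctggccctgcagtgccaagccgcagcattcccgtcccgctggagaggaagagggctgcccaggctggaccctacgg

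The printed Cacnb4 window and the Cacna2d3 window each held 6 matches to the GC box and the Scn4b window none, and 35.7% of all 32851 RefSeq windows of this length held at least 1. The TATA box TATAAA (13.6% of all windows) and the cyclic AMP response element TGACGTCA (1.79%), searched on both strands, had no match in the 3 windows. The G and C content was 78.3%, 81.3% and 66.3%, with a median of 52.7% over all windows. The printed Cacnb4 window is that of the most upstream of its RefSeq starts searched here. The counted gene begins further upstream, at 52676831 on the minus strand, so the whole printed Cacnb4 window lies within the counted gene. The other Cacnb4 windows had no GC box and a G and C content of 49.7% and 69.7%. The data used here do not say which start was used. The counted Scn4b gene begins at 45138395 on the plus strand, so most of the printed Scn4b window also lies within the counted gene.

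None of the 3 HCN genes passed the test (edgeR, also at an unadjusted p under 0.05; DESeq2 and limma-voom 0). Hcn2, the main HCN subunit by level here at 91.8% of the summed FPKM of the 3 genes, stood at 126, 80.5 and 80.2 CPM in the Caspase3 libraries and at 93.2, 110.5 and 115 CPM in the GFP libraries. Caspase3 replicate 1 was the highest of all 6, and the other Caspase3 libraries were the lowest. With these values the log2 fold change was -0.15 ± 0.18 (SE; edgeR adjusted p = 0.812). Without Caspase3 replicate 1 it was -0.40 (adjusted p = 0.162), without Caspase3 replicate 2 it was -0.05 (adjusted p = 0.940), and without Caspase3 replicate 3 it was -0.06 (adjusted p = 0.971). Hcn4, the sinoatrial and thalamic subunit, was 1 of the 2 tested members with a value above 0, at 0.25 ± 0.17 (SE; adjusted p = 0.656), with 8.37 to 12.3 CPM against 7.91 to 9.32 CPM. Hcn3 ranged from 4.36 to 5.56 and from 4.24 to 6.06 CPM, and its log2 fold change was -0.09 (adjusted p = 0.902).

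The members varied among themselves within a group as well. Caspase3 replicate 1 held the lowest value of all 6 libraries for 14 of the 27 tested members, whereas it was 1.54 times the mean of the other Caspase3 libraries for Scn1a, 1.57 times for Hcn2, 1.63 times for Cacna2d2 and 2.99 times for Scn4b. GFP replicate 2 held the highest value for 13 of the 27. GFP replicate 3 was 3.90 times the mean of GFP replicates 1 and 2 for Scn4b and 1.89 times for Cacna2d3, and 1.38 and 1.36 times for Cacna2d2 and Cacna1h. The coefficient of variation within a group had a median of 14.2% in the Caspase3 group and 10.9% in the GFP group. For 23 of the 27, the 95% interval of the log2 fold change excluded a 2-fold difference in either direction, and for 17 it excluded a 1.5-fold difference.

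Genes whose products bind or anchor these channels were examined beside them. Of 36 such genes, 36 were tested, and none passed (edgeR; DESeq2 and limma-voom 0). At an unadjusted p under 0.05 there were 4 of the 36, where 10.6% of all tested genes reached that level, and the groups did not overlap for 1 gene that was higher and 4 that were lower, where 15.2% of all tested genes had such groups. The log2 fold change was below 0 for 30, against 50.2% of all tested genes, and the median was -0.13. The 4 with the smallest p were Rem2, Fgf14, Fgf11 and Rrad. Fgf14, an intracellular partner of sodium channels at the axon initial segment, stood at 38.3, 53.6 and 51.0 CPM in the Caspase3 libraries and at 58.4, 62.6 and 57.6 CPM in the GFP libraries, groups that did not overlap. Its log2 fold change was -0.32 ± 0.13 (SE; edgeR adjusted p = 0.400), and -0.19 without Caspase3 replicate 1 (adjusted p = 0.583). Fgf11, of the same family, had a log2 fold change of -0.43 (adjusted p = 0.454).

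Rem2 and Rrad encode small GTPases that restrain calcium channels through the beta subunit. Rem2 stood at 0.474, 0.546 and 0.197 CPM in the Caspase3 libraries and at 1.17, 0.317 and 4.04 CPM in the GFP libraries, highest in GFP replicate 3 (log2 fold change -2.18, edgeR adjusted p = 0.369), and without that library the log2 fold change was -0.86 (adjusted p = 0.694). Rrad stood at 0.853, 0.819 and 0.552 CPM against 0.373, 0.317 and 0.527 CPM, and 3 counts in a library correspond to 0.118 to 0.142 CPM. Its log2 fold change was 0.86 (edgeR adjusted p = 0.454).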

How the data were processed

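The authors deposited raw read counts per gene and FPKM values for the 6 libraries, and per the file headers each row carries a gene's name, position and length. The submitters' processing notes list HISAT2, featureCounts and DESeq2 beside GRCm38 and mm10, without roles; no source used here states a strand setting for the counts. The library kit marks the second strand, per the labels' protocols. Within each library the deposited FPKM equalled count divided by length and by a constant of 95.6% to 105.6% of the total count. All 29 members had the same identifier, name and position in GENCODE M21 (GRCm38). Groups and sample numbers come from the titles, and no batch is given.

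The test was that of edgeR 4.0.16 (R 4.3.3; glmQLFit and glmQLFTest after filterByExpr and TMM scaling; intercept and group; 6 libraries) on the counts, with Benjamini-Hochberg adjustment over all 16721 tested genes and a threshold of 0.05. An SE is the absolute log2 fold change divided by the square root of F. On counts simulated for the 16721 tested genes, not for the members alone, edgeR found 18.8%, 61.2% and 93.8% of the genes given changes. These changes were 1.5-fold, 2-fold and 4-fold. Replicates differed by more than sampling noise (mean chi-square per gene 11.4 to 29.7). Alternatives used DESeq2 1.42.0, limma 3.58.1, other scalings, filters and thresholds, log2(FPKM + 0.1) and log2(FPKM + 1), a block and left-out libraries. Members and gene lists were chosen with earlier results of these data known. Values in every library are given for members with an unadjusted p under 0.05, the member with the highest mean FPKM in each class, Scn1a, Scn4b and Cacna2d2, and members whose groups do not overlap; partner genes named are those that passed or, with none, the 4 with the smallest p. Their values with libraries left out were added after seeing the data. Lists for oligodendrocyte precursors (6 genes, median log2 fold change 0.06), astrocytes (8, 0.04), oligodendrocytes (10, 0.34), endothelial and mural cells (9, -0.11), striatal projection neurons (16, -1.54) and choroid plexus and ependyma (2 of 6 tested, 0.88) were also read; of these, Gfap alone passed. Floors cover counting error only. Figures were drawn with Matplotlib 3.10.9.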

Additional observations from a re-analysis of the deposited data

How the results depend on the processing

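Over 17 alternatives, 22 of the 27 tested members never passed, and of 459 values 427 kept their direction and side of the threshold. No member passed with other scalings, the stricter filter, limma or a threshold of 0.1. With no filter on low counts 5 members passed (Scn1a, Scn4b, Cacna2d2, Cacna2d3, Cacnb4; 2.89% of all genes) and 1 partner gene; with DESeq2 2 (3.02%); leaving out 1 library gave 0 to 2, and without Caspase3 replicate 1 and GFP replicate 3, chosen after seeing the data, 3 (Scn1a, Scn4b, Cacna2d2). All genes passing numbered 274, and 913 with no filter, 505 with DESeq2, 170.0 on log2(FPKM + 1) and 17 to 285 with 1 library left out (17 without GFP replicate 2, 144 without GFP replicate 3), or 337 without both libraries. Same-numbered libraries had correlated deviations of 0.0703, 0.207 and 0.0382, and differently numbered libraries of -0.155 to 0.0853. The numbers were not taken as pairs because no label says that they mark a shared animal or batch. With the replicate block 421 genes (2.52%) and 1 member, Cacnb4, passed (edgeR adjusted p = 0.0274). The median of the members lay between -0.24 and -0.13. Values near 0 changed sign in 7 members. Cacnb1 was -0.0035 with DESeq2-type size factors and with DESeq2, -0.00086 with limma-voom, -0.014 and -0.013 on log2(FPKM + 0.1) and log2(FPKM + 1), -0.00065 with the block and -0.12 to 0.14 with 1 or both libraries left out. Cacnb3 was 0.0081 with library totals. With 1 or both left out, Cacnb3 lay between -0.14 and 0.0063, Cacna1c between -0.21 and 0.039, Cacna1d between -0.17 and 0.039, Cacna1e between -0.24 and 0.095, Cacna1g between -0.17 and 0.040 and Hcn3 between -0.23 and 0.046. The cause was not tested.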
